A study of Mus musculus with 12 samples.

Results

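The fatty acid binding protein genes Pmp2, Fabp3, Fabp4, Fabp5 and Fabp7 and the retinoic acid binding protein genes Crabp1 and Crabp2 were described in sorted Schwann cells. They were taken by symbol from the table of deposited counts and are 7 of its 25700 genes. RNA was measured by Smart-Seq2 on bulk cells from the sciatic nerves of P5 (postnatal day 5) C57bl/6J mice that carried P0Cre, the ReYFP reporter and βAct-DsRed. In these mice Cre is driven by a promoter active in Schwann cells, so that eYFP marks Schwann cells and stays on in cells derived from them, while dsRed is made in all cells. Cells positive for eYFP were sorted by side scatter into 3 gates, and all 3 gates share the genotype and age. The allSC gate took both clouds of cells, the mSC gate the cloud of high side scatter, enriched in myelinating cells, and the nmSC gate the cloud of low side scatter, enriched in cells that do not myelinate. Each gate had 4 libraries, from female and male mice in equal number by the paper. The labels give each library a subject number from 1 to 4 that recurs in all gates and is read here as the mouse. The libraries held 8180927 to 16918122 counts, so that the floor of 3 counts lay between 0.177 and 0.367 CPM (counts scaled to a common library total). Sox10, which marks cells of this lineage, stood at 267 CPM in allSC, 267 CPM in mSC and 266 CPM in nmSC, and all 12 myelin landmark genes that had been listed were higher in mSC than in nmSC, as the labels of the gates say.

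Proteins of this family are small, and each encloses a lipid in a barrel of beta strands under a lid of helices. PMP2, also called P2, binds to membranes and lies in the cytoplasmic layers of compact peripheral myelin. The other fatty acid binding proteins carry fatty acids to enzymes, organelles and nuclear receptors, and CRABP1 and CRABP2 do the same for retinoic acid, the former towards the enzymes that break it down and the latter towards its nuclear receptors.

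In these libraries the family was dominated by Pmp2, which was 25.3-fold higher in mSC than in nmSC and was among the most abundant transcripts of mSC. Fabp5 came next in level, and no difference between gates was detected for it. Crabp1 went the other way, 8.57-fold higher in nmSC than in mSC, and Fabp7 was 2.11-fold higher in nmSC, a call that was lost with the mouse as a block. Crabp2 was 1.94-fold higher in mSC than in allSC, a call that 4 single libraries can end, and Fabp4 and Fabp3 had at most 20 counts in any library. In bulk samples, fewer cells of a type and less RNA per cell cannot be told apart.

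The genes are related in sequence and in order along the genome. In GENCODE M21 (GRCm38), Pmp2 (ENSMUSG00000052468) lies at chr3:10179851-10183929 on the minus strand, Fabp4 (ENSMUSG00000062515) at chr3:10204088-10208576 on the minus strand and Fabp5 (ENSMUSG00000027533) at chr3:10012548-10016607 on the plus strand, in one cluster with Fabp9 and Fabp12. Crabp2 (ENSMUSG00000004885) is on the same chromosome at chr3:87948666-87953376. Crabp1 (ENSMUSG00000032291) is at chr9:54764748-54773110, Fabp7 (ENSMUSG00000019874) at chr10:57784881-57788450 and Fabp3 (ENSMUSG00000028773) at chr4:130308595-130315463, all on the plus strand. Each has 4 coding exons, and the coding parts span 132 codons in Pmp2, Fabp4 and Fabp7, 133 in Fabp3, 135 in Fabp5, 137 in Crabp1 and 138 in Crabp2, stop codon not counted.

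The coding part of the first exon is shown for each gene to show how the members differ and because, in Pmp2, it is the exon that a second annotated gene does not share. Capitals mark bases equal to that of Pmp2 at the same distance from the end of the exon, and the sequences run 5′ to 3′ on the strand of the gene.
Pmp2: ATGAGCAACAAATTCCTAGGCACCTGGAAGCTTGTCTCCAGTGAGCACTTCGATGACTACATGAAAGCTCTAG
Fabp4: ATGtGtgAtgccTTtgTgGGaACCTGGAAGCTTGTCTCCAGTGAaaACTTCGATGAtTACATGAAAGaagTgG
Fabp3: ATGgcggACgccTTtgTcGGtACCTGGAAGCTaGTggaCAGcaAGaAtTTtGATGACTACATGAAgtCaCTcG
Fabp7: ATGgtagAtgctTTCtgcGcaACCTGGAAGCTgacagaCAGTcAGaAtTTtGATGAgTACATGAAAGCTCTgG
Fabp5: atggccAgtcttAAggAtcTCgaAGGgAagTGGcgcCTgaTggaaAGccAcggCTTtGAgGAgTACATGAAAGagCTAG
Crabp1: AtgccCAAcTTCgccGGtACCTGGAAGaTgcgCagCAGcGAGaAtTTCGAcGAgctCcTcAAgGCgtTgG
Crabp2: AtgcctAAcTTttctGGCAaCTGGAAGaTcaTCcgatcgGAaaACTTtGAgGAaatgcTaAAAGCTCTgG
The Pmp2 stretch is chr3:10183747-10183819, that of Fabp4 chr3:10208439-10208511, that of Fabp3 chr4:130308778-130308850, that of Fabp7 chr10:57785009-57785081, that of Fabp5 chr3:10012640-10012718, that of Crabp1 chr9:54764902-54764971 and that of Crabp2 chr3:87948841-87948910. Fabp4 shares 55 of the 73 bases with Pmp2, Fabp3 49 and Fabp7 48. Over the whole coding sequence, aligned end to end, Pmp2 was 71.2% identical to Fabp4, 66.6% to Fabp3, 61.6% to Fabp7 and 60.3% to Fabp5, and Crabp1 was 70.3% identical to Crabp2. No pair of members shared a run of over 23 bases, so a read of the length used in the study cannot match the coding sequence of 2 members without error. Annotated copies elsewhere do share windows of the length of a read, 18.9% of those of Fabp3 with the pseudogene Fabp3-ps1 and 1.5% of those of Fabp5 with the pseudogene Gm6166, and neither pseudogene is among the listed genes. How reads that match several places were treated is not given in the sources used here. No other gene shared a window of this length with Fabp4, Fabp7, Crabp1 or Crabp2.

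Pmp2 codes for the myelin protein P2. Its normalised read counts (CPM scaled by the trimmed mean of M values, TMM) were 3299, 3536, 3581 and 5219 in mSC libraries 1 to 4. In allSC they were 1690, 1488, 1649 and 1709, and in nmSC 171, 141, 113 and 192. The 3 gates did not overlap, the allSC libraries lay between those of the other gates in each of the 4 mice, and mSC library 4 stood above the other 3. Within a mouse, mSC held 19.3, 25.1, 31.8 and 27.1 times the level of nmSC. The gates were compared by the quasi-likelihood test of edgeR, and p-values were adjusted by Benjamini-Hochberg over all 18597 tested genes. The log2 fold change of mSC against nmSC was 4.66 (SE 0.191, adjusted p = 1.06e-12), which put Pmp2 at rank 17 from the top. Against allSC it was 1.26 higher in mSC on the log2 scale (SE 0.166, adjusted p = 2.01e-05) and it fell by 3.40 in nmSC (SE 0.180, adjusted p = 1.53e-10). Pmp2 reads made up 0.287% to 0.389% of all counts in mSC, 0.154% to 0.171% in allSC and 0.0130% to 0.0223% in nmSC.

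**Figure D1:**
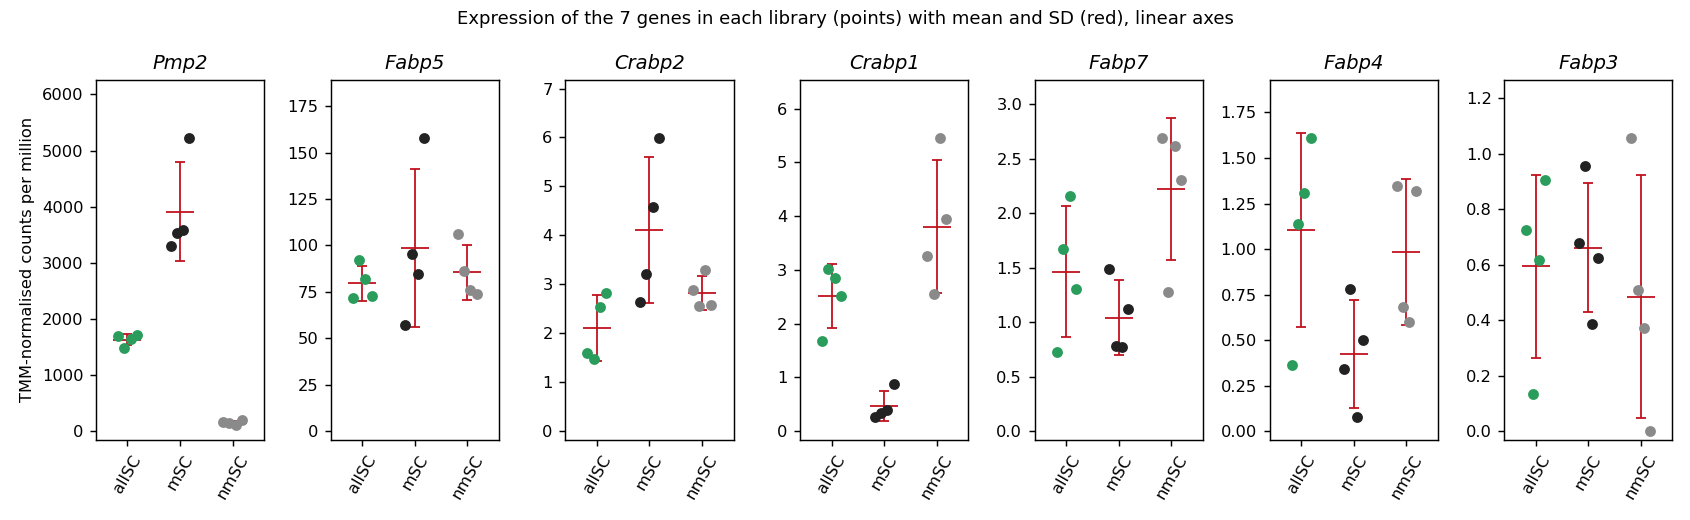
Normalised counts (CPM, TMM-scaled) of each gene on its own linear axis, with 1 point per library, 4 libraries per gate, and the mean with its SD in red. Pmp2 runs from 113 in the lowest nmSC library to 5219 in the highest mSC library and its gates do not overlap, the mSC points of Crabp1 (0.271 to 0.873) sit under all others, and the gates overlap for Fabp5, Crabp2, Fabp7, Fabp4 and Fabp3.

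A second gene stands on the exons of Pmp2. Gm37389 (ENSMUSG00000103124, chr3:10179852-10197262, minus strand) is annotated as a transcript that starts at Fabp9 and ends on Pmp2, and it covers 1224 of the 1408 exon bases of Pmp2, leaving out its first exon. Its counts were between 88.8% and 92.5% of those of Pmp2 in every library. The 344 exon bases of Gm37389 that lie outside Pmp2 are all shared with Fabp9, a testis-expressed relative, which had 0 to 13 counts. The reads on the shared exons were thus listed for both genes, and whether each was counted whole or in equal parts cannot be told apart from these counts, which leaves the absolute level of Pmp2 uncertain but not the ratio between gates. The reads listed for Pmp2 but not for Gm37389 lie on the remaining 184 bases, 13.1% of its exons. They are not the full coverage of these bases, because a read that runs on into a shared exon can be listed for both genes. Such reads of Pmp2 alone amounted to 339 CPM ± 74.0 (SD, n = 4) in mSC, 138.5 CPM ± 19.1 (SD, n = 4) in allSC and 13.4 CPM ± 1.95 (SD, n = 4) in nmSC. The log2 fold change of mSC against nmSC on these reads alone, an alternative chosen after seeing the data, was 4.66 (SE 0.181, adjusted p = 6.46e-13 by edgeR's quasi-likelihood test).

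**Figure D2:**
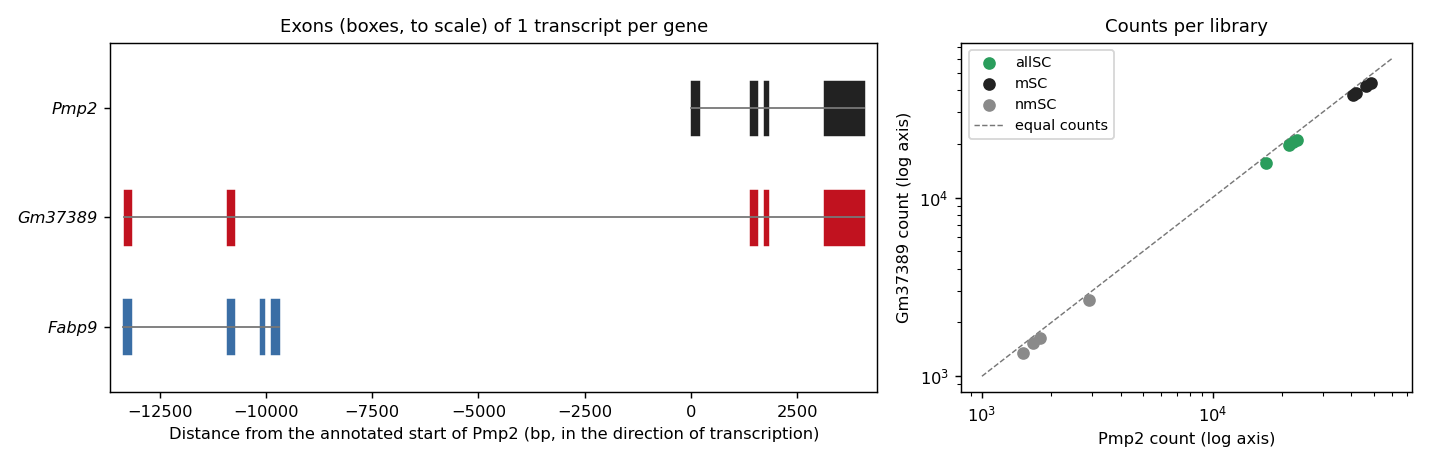
Left, exons of Fabp9, Gm37389 and Pmp2 to scale, as the distance in bp from the annotated start of Pmp2 in the direction of transcription. Right, counts of Gm37389 against those of Pmp2 in each of the 12 libraries on log axes, all just under the dashed line of equal counts, with Gm37389 at 88.8% to 92.5% of Pmp2.

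Fabp5 codes for the epidermal fatty acid binding protein, which carries fatty acids and retinoic acid to PPARδ. Its level was 57.4, 95.5, 84.6 and 158 CPM in mSC libraries 1 to 4. The allSC libraries had 71.9, 92.0, 82.2 and 72.9 CPM and the nmSC libraries 106, 86.1, 75.8 and 73.8 CPM. The gates overlapped, and mSC held both the lowest and the highest library. The ratio of mSC to nmSC was 0.541, 1.11, 1.12 and 2.14 in the 4 mice. The log2 fold change of mSC against nmSC was 0.21 (95% interval −0.25 to 0.66, adjusted p = 0.457, edgeR's quasi-likelihood test), that of mSC against allSC 0.30 (−0.15 to 0.76, adjusted p = 0.354) and that of nmSC against allSC 0.10 (−0.36 to 0.55, adjusted p = 0.866). No difference between gates was detected, and intervals of this width leave room for a change of up to 0.66 between mSC and nmSC. The sign of mSC against nmSC was negative, −0.10, without mSC library 4 and −0.40 when library size alone was used as the scaling, neither of them called.

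Fabp7 codes for the brain fatty acid binding protein of radial glia, astrocytes and early cells of the Schwann cell lineage. It had 22, 9, 10 and 9 counts in mSC libraries 1 to 4, 10, 25, 28 and 13 in allSC and 28, 15, 35 and 35 in nmSC. In CPM this was 0.776 to 1.49 in mSC, 0.727 to 2.15 in allSC and 1.27 to 2.69 in nmSC, so the gates overlapped, although nmSC was higher than mSC in each of the 4 mice, by 1.80, 1.63, 3.37 and 2.06 times. Its expression fell by 1.08 on the log2 scale in mSC against nmSC (95% interval −1.90 to −0.25, adjusted p = 0.0361, edgeR's quasi-likelihood test). With the mouse as a replicate block the value was −1.06 with adjusted p = 0.0583, and with no filter on low counts −1.04 with adjusted p = 0.0511. The call was also lost without mSC library 2 (−0.95), 3 (−0.94) or 4 (−1.10) and without nmSC library 1 (−0.98), 3 (−0.98) or 4 (−1.05). Against allSC, neither mSC (−0.48, adjusted p = 0.431) nor nmSC (0.59, adjusted p = 0.411) passed the test.

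Fabp4 codes for the adipocyte fatty acid binding protein, which is also made by capillary endothelium and macrophages. It had 5, 9, 1 and 4 counts in mSC libraries 1 to 4, 5, 17, 17 and 16 in allSC and 14, 8, 8 and 20 in nmSC. These counts were few and the gates overlapped. The log2 fold change of mSC against nmSC was −1.23 (95% interval −2.47 to 0.0004, adjusted p = 0.101) and that of mSC against allSC −1.38 (−2.61 to −0.16, adjusted p = 0.112), neither called by edgeR's quasi-likelihood test. Both were called with library size alone as the scaling, at −1.79 (adjusted p = 0.0153) and −1.68 (adjusted p = 0.0467). Between nmSC and allSC the log2 fold change was −0.15 (−1.25 to 0.96, adjusted p = 0.924).

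Markers of the other cells that make Fabp4 were measured beside it. The summed level of 6 adipocyte markers was 1.30 to 2.17 CPM in mSC, 1.91 to 2.81 in allSC and 1.44 to 4.03 in nmSC, with Adipoq at 0 to 18 counts in the 12 libraries and Cfd, which codes for adipsin, at 0 in all mSC and nmSC libraries. The summed level of 7 endothelial markers was 52.4 to 73.0 CPM in mSC, 35.8 to 38.8 in allSC and 17.5 to 29.1 in nmSC. This sum was led by Egfl7 and Kdr, which were higher in mSC, while Pecam1 and Tek were lower in mSC than in nmSC, by 0.95 and 1.12 on the log2 scale, and Pecam1 had 4 to 37 counts. For 8 immune cell markers the sum was 17.1 to 26.3 CPM in mSC, 23.1 to 31.8 in allSC and 23.4 to 32.2 in nmSC. The part of such cells in the Fabp4 counts was not tested.

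Fabp3, the fatty acid binding protein of heart and skeletal muscle, had 10, 11, 5 and 5 counts in mSC libraries 1 to 4, 10, 2, 8 and 9 in allSC and 11, 6, 5 and 0 in nmSC. It was the only member to miss the filter on low counts. Fitted without that filter, its log2 fold change of mSC against nmSC was 0.54 (SE 0.707, adjusted p = 0.588, edgeR's quasi-likelihood test), and a difference was not detectable at this depth. The exons of Fabp3 overlap 81 bases of Zcchc17 and 80 bases of Gm10570 on the opposite strand. Smart-Seq2 does not mark strand, and Zcchc17 had 332 to 579 counts per library, and whether any of the few Fabp3 counts belong to that gene was not tested. The summed level of 7 striated muscle markers was 2.33 to 3.99 CPM in mSC, 5.08 to 8.14 in allSC and 6.78 to 9.26 in nmSC.

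Crabp1 codes for cellular retinoic acid binding protein 1 and was the member with the largest difference after Pmp2. It had 4, 4, 5 and 7 counts in mSC libraries 1 to 4, 23, 45, 37 and 25 in allSC and 34, 30, 73 and 60 in nmSC. In CPM the mSC libraries (0.271, 0.347, 0.388 and 0.873) did not overlap those of allSC (1.67, 3.01, 2.85 and 2.51) or nmSC (3.26, 2.55, 5.45 and 3.95), while the last 2 gates overlapped. In the 4 mice nmSC held 12.03, 7.34, 14.1 and 4.53 times the level of mSC. The gene fell by 3.10 in mSC against nmSC on the log2 scale (SE 0.399, adjusted p = 3.81e-06, edgeR's quasi-likelihood test), rank 174 from the bottom of the tested genes, and by 2.50 against allSC (SE 0.407, adjusted p = 0.000208). Between nmSC and allSC the log2 fold change was 0.60 (95% interval −0.07 to 1.28, adjusted p = 0.302).

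Crabp2 codes for cellular retinoic acid binding protein 2. It had 39, 37, 59 and 48 counts in mSC libraries 1 to 4, 22, 22, 33 and 28 in allSC and 30, 30, 44 and 39 in nmSC. The level was 2.65 to 5.98 CPM in mSC, 1.47 to 2.81 CPM in allSC and 2.55 to 3.29 CPM in nmSC, so each pair of gates overlapped, and mSC was above allSC in each of the 4 mice. Its expression rose by 0.96 in mSC against allSC on the log2 scale (95% interval 0.32 to 1.60, adjusted p = 0.0372, edgeR's quasi-likelihood test). This call was lost without allSC library 1 (0.85) or 2 (0.82), without mSC library 3 (0.93) or 4 (0.76, the largest change), in a fit of those 2 gates alone (0.90, adjusted p = 0.0754) and with library size alone as the scaling (0.64, adjusted p = 0.119). Against nmSC the value in mSC was 0.52 (−0.11 to 1.15, adjusted p = 0.169), and −0.05 by library size alone, and between nmSC and allSC it was 0.44 (−0.21 to 1.09, adjusted p = 0.475).

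**Figure D3:**
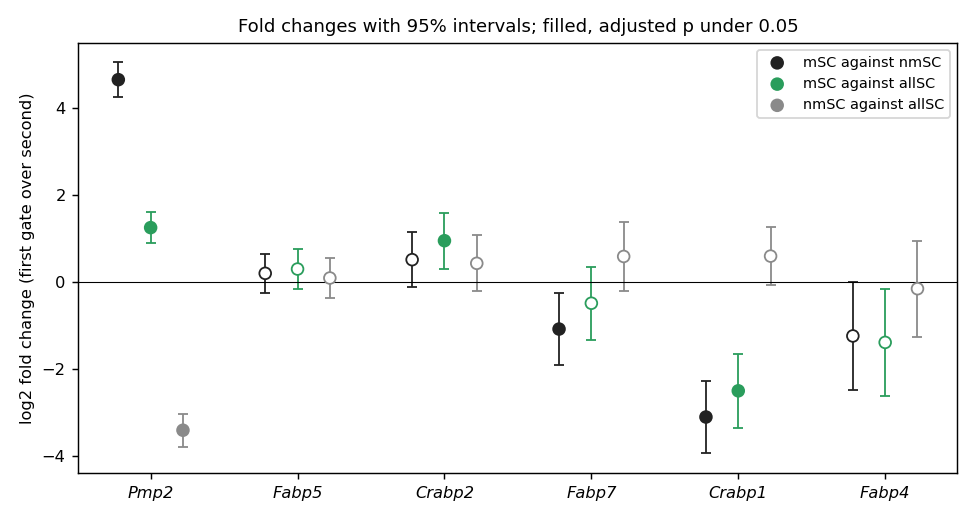
Log2 fold change of the 6 tested members in the 3 comparisons, with 95% intervals from the fit over 12 libraries, filled where the adjusted p is under 0.05. Pmp2 lies far above 0 for mSC against nmSC (4.66) and Crabp1 far below (−3.10), the intervals of Fabp5 cross 0 in all 3 comparisons, and with library size alone as the scaling Fabp5 and Crabp2 change sign for mSC against nmSC.

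Of the 6 members that could be tested, 1 rose and 2 fell in mSC against nmSC, where 40.5% of all tested genes were called, 20.4% higher and 20.1% lower in mSC. Against allSC, 2 rose and 1 fell in mSC, with 17.6% of all genes called, 8.76% higher and 8.8% lower in mSC. In nmSC against allSC 1 fell, with 10.4% called, 2.82% higher and 7.55% lower in nmSC. A count of 3 of 6 was near the share of all genes in the former comparison. All comparisons shared libraries of the same mice, and those with allSC shared its libraries.

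All members but Pmp2 and Fabp5 are low genes, and low genes were more often lower than higher in mSC. Of 4654 genes with a mean of 1 to 4 CPM over the libraries, a range that holds Crabp1, Crabp2 and Fabp7 while Fabp4 and Fabp3 lie under it, 27.7% were called lower and 3.85% higher in mSC than in nmSC, with a median log2 fold change of −0.68, where the median of all tested genes was −0.16. Against allSC the median of these low genes was −0.45. Crabp2 stood on the other side of these medians, at 0.52 and 0.96. Reads on 1509 olfactory and vomeronasal receptor genes, which Schwann cells are not known to use, came to 0.188 to 0.229 RPKM in mSC, 0.257 to 0.322 RPKM in allSC and 0.247 to 0.392 RPKM in nmSC. RPKM here are the TMM-scaled CPM divided by the length of the exons in kilobases. Fabp4 was at 0.0945 RPKM ± 0.0656 (SD, n = 4) in mSC and 0.219 RPKM ± 0.0894 (SD, n = 4) in nmSC, no higher than these receptor genes at the length used. That length is the merged exons of its 2 transcripts, 4489 bases in 1 block, while their mean length is 2563.5 bases. A shorter length gives a higher RPKM, so Fabp4 cannot be placed at the level of the receptor genes by this value alone. Fabp3 was at 0.589 to 0.803 RPKM in the means of the gates. The part of this background in the differences of Fabp7, Fabp4 and Crabp1 was not tested.

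Per length of exon, the order of the family was the same at the top in all gates. Pmp2 stood at 2776 RPKM ± 627 (SD, n = 4) in mSC, rank 12 of 25128 genes, at 1160 RPKM ± 71.6 (SD, n = 4) in allSC, rank 17, and at 110 RPKM ± 24.8 (SD, n = 4) in nmSC, rank 241. Fabp5 followed at 27.7 RPKM ± 11.9 (SD, n = 4) in mSC, 22.4 RPKM ± 2.64 (SD, n = 4) in allSC and 24.0 RPKM ± 4.14 (SD, n = 4) in nmSC. With merged exons as the length, these 2 genes did not overlap in any gate. Below them the order differed by gate. In nmSC, Crabp1 (4.74 RPKM ± 1.54, SD, n = 4) stood above Crabp2 (2.13 RPKM ± 0.261, SD, n = 4) and Fabp7 (1.78 RPKM ± 0.522, SD, n = 4), and the last 2 lay within their spread. In allSC the order was Crabp1 (3.13 RPKM), Crabp2 (1.59 RPKM), Fabp7 (1.17 RPKM), Fabp3 (0.723 RPKM) and Fabp4 (0.246 RPKM), and each of the first 4 overlapped the next. In mSC, Crabp2 (3.11 RPKM ± 1.13, SD, n = 4) stood above Fabp7 (0.834 RPKM ± 0.273, SD, n = 4), Fabp3 (0.803 RPKM ± 0.283, SD, n = 4) and Crabp1 (0.586 RPKM ± 0.340, SD, n = 4), which did not differ beyond their spread. The values of Fabp4 and Fabp5 are low estimates if only the spliced transcript is made, because both have an annotated transcript that retains introns. With the longest protein-coding transcript as the length, Fabp5 was at 100.1 RPKM in mSC, 80.8 in allSC and 86.6 in nmSC. The last mean lies above the lowest Pmp2 library of nmSC, 80.1 RPKM, so with that length Fabp5 and Pmp2 overlap in nmSC. For Fabp4 no value with that length is given, so its place below Fabp3 is that by the merged exons only. Fabp7 and Crabp2 also have 2 transcripts each, with merged exons of 1250 and 1322 bases and mean lengths of 842 and 794.5 bases. Crabp1 has 1 transcript of 802 bases. The order of the members below Fabp5 is thus also that by the merged exons only, and a shorter length would raise Fabp7 and Crabp2 beside Crabp1.

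The make-up of the family does not depend on the scaling of the libraries. Pmp2 supplied 98.9% ± 0.215 (SD, n = 4) of the summed RPKM of the 7 genes in mSC, 97.5% ± 0.408 (SD, n = 4) in allSC and 76.1% ± 4.70 (SD, n = 4) in nmSC, and the nmSC libraries (70.7% to 82.2%) did not reach those of the other gates. Fabp5 made up 17.01% of the sum in nmSC and 0.958% in mSC, and Crabp1 3.48% and 0.0198%. With the longest protein-coding transcript as the length, a choice added after seeing the data, the share of Pmp2 in nmSC was 52.3%.

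**Figure D4:**
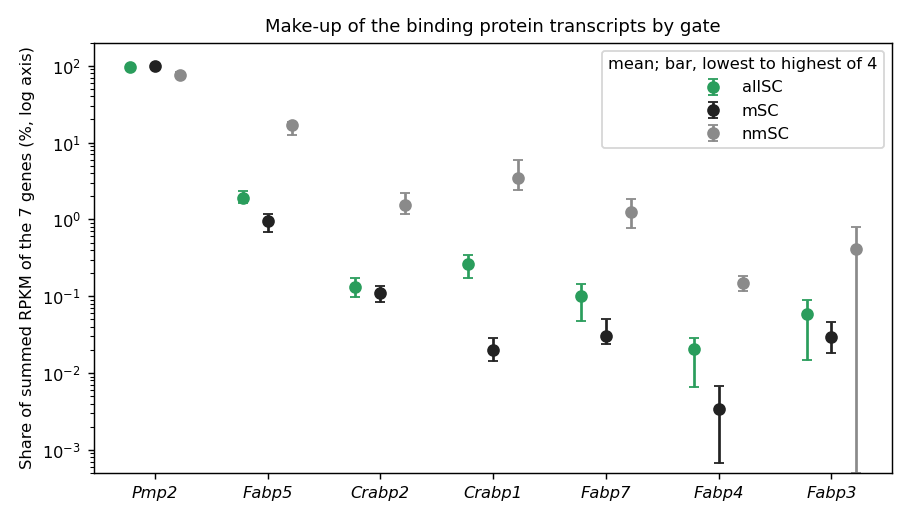
Share of each gene in the summed RPKM of the 7 genes, in percent on a log axis, as the mean of 4 libraries per gate with a bar from the lowest to the highest library. Pmp2 falls from 98.9% in mSC to 76.1% in nmSC while Fabp5 goes from 0.958% to 17.01%, and the bar of Fabp3 in nmSC leaves the axis at the bottom because 1 library had 0 counts.

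The level of Pmp2 in allSC lay 39.4% of the way from nmSC to mSC, that of Crabp1 38.8% and that of Fabp7 64.1%. Over the 3977 genes that were called between mSC and nmSC with at least a 2-fold difference, the median place was 43.9% (quartiles 34.8% and 52.7%), so Pmp2 and Crabp1 lay inside the middle range and Fabp7, at a few counts per library, outside it. With library size alone the place of Pmp2 was 49.2% and the median 53.7%.

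Among genes with a mean of at least 10 CPM, those nearest in pattern over the 12 libraries were found by the root mean square difference of centred log2(CPM + 1). For Pmp2 they were Gm37389 (0.018), which shares its reads, Serpinb6b (0.21), a serpin, and Kcnk1 (0.22), a potassium channel, at 359 CPM in mSC and 16.9 CPM in nmSC. For Fabp5 they were Manf (0.077), an endoplasmic reticulum stress protein, Mrps11 (0.087), a mitochondrial ribosome protein, and Pomp (0.090), a proteasome assembly factor. Crabp1 was nearest to Mlxip, Prss23 and Scg3 (0.20 each), Crabp2 to Emc9 (0.19), Capns1 (0.20) and Maco1 (0.21), Fabp7 to Trio (0.20), Trim24 (0.20) and Soga1 (0.21) and Fabp4 to Tma16 (0.21), Zfhx3 (0.22) and Efna5 (0.23). The pseudocount of 1 flattens the pattern of members near 1 CPM.

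Among further genes of the family, Fabp12 (−0.38, adjusted p = 0.557) and Rbp2 (−0.84, adjusted p = 0.254) passed the filter and not edgeR's quasi-likelihood test between mSC and nmSC. Fabp1, Fabp2, Fabp6, Fabp9 and Rbp7 missed the filter with at most 13 counts in any library.

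RefSeq promoters (GRCm38.p6), 250 bases before to 50 after the start, were at hand for Crabp1, Fabp7 and Fabp3, and not for Pmp2, Fabp4, Fabp5 and Crabp2. The former 2 are shown because both genes were lower in mSC. The stretches run from 250 to 51 bases before the start, at chr9:54764498-54764697 for Crabp1 and chr10:57784673-57784872 for Fabp7, both on the plus strand. Capitals mark the GC box GGGCGG in Crabp1 and, in Fabp7, the nuclear receptor hexamer AGGTCA as it reads on the other strand.
Crabp1: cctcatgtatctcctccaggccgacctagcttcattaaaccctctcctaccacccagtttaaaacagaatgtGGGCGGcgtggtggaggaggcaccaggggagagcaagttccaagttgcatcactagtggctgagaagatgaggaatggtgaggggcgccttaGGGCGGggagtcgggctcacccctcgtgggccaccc
Fabp7: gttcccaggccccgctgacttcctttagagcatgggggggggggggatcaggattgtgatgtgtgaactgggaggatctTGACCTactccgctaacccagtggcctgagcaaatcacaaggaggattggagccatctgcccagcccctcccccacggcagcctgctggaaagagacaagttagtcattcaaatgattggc
Each motif was searched on both strands in the whole window of 300 bases. The promoter of Crabp1 held 5 GC boxes, 2 of them in the stretch shown, and 35.7% of 32851 promoters held at least 1. That of Fabp7 held 1 AGGTCA, found in 16.3% of promoters. None of the 3 windows held TATAAA (13.6% of promoters) or the Sox hexamer ACAAAG (18.7%), and that of Fabp3 held none of the motifs.

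Genes that handle the same ligands were grouped by role. Of 16 genes of fatty acid uptake and activation, all tested, 5 rose and 6 fell in mSC against nmSC, where 20.4% of all tested genes rose and 20.1% fell. The acyl-CoA synthetases divided, with Acsl1 at 148 CPM in mSC and 31.0 CPM in nmSC (log2 fold change 2.25, adjusted p = 2.64e-10) and Acsl3 1.90 higher (adjusted p = 5.34e-10), while Acsbg1 fell by 1.86 (adjusted p = 1.46e-08) and Acsl5 by 1.15 (adjusted p = 1.14e-05, edgeR's quasi-likelihood test in each case). Dbi, the acyl-CoA binding protein, had the highest level of the group, at 391.5 CPM in mSC and 432 CPM in nmSC, and did not pass the test (−0.14, adjusted p = 0.753). The median of the group was −0.19, beside −0.16 for all genes, and with library size alone 4 rose and 8 fell.

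Of 12 genes of fatty acid oxidation in mitochondria, 8 rose and the other 4 did not pass the test, where 20.4% of all tested genes rose. The median of the group was 0.57, beside −0.16 for all genes. Slc25a20, the carnitine carrier, was 0.87 higher (adjusted p = 0.000169). Hadhb, a subunit of the trifunctional protein and the most abundant of the group, was 0.85 higher (adjusted p = 5.34e-05, edgeR's quasi-likelihood test in both cases). With library size alone, 1 rose and 2 fell, and the median of the group above that of all genes was 0.74, as under RLE size factors. Cpt1a, the gatekeeper of the pathway, did not pass the test (−0.20, adjusted p = 0.463).

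Of 11 genes of triglyceride storage and lipolysis, 7 rose and the other 4 did not pass the test, where 20.4% of all tested genes rose. The median of the group was 0.76, beside −0.16 for all genes. Mgll, the monoacylglycerol lipase, was at 538 CPM in mSC and 109 CPM in nmSC (2.30, adjusted p = 2.63e-10) and Dgat2, which completes triglycerides, was 1.48 higher (adjusted p = 2.33e-08). Pnpla2, the first lipase of the cascade, was 1.15 higher (adjusted p = 4.08e-06, edgeR's quasi-likelihood test), and Lipe, the hormone-sensitive lipase that FABP4 binds, was at 7.25 and 6.92 CPM (0.07, adjusted p = 0.838). With library size alone, 5 rose and 3 fell (Lpin1, Plin2 and Gpat4), and Mgll, Dgat2 and Pnpla2 were still higher, by 1.71, 0.91 and 0.58.

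Of 16 genes of retinoid metabolism, 12 passed the filter, 2 rose and 3 fell in mSC against nmSC, where 20.4% of all tested genes rose and 20.1% fell. The median of the group was −0.20, beside −0.16 for all genes. The retinal reductases Rdh14 (1.40, adjusted p = 5.63e-08) and Rdh11 (1.10, adjusted p = 1.93e-06) rose. The retinaldehyde dehydrogenases Aldh1a3 and Aldh1a1, which make retinoic acid, fell by 1.88 (adjusted p = 0.00119) and 1.72 (adjusted p = 0.000159), both under 5 CPM on average in every gate, and Dhrs3, which turns retinal back into retinol, fell by 0.74 (adjusted p = 0.000175, edgeR's quasi-likelihood test). The Cyp26 enzymes, which break down retinoic acid, missed the filter. With library size alone 2 rose and 4 fell.

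Of 9 nuclear receptors for these ligands, all tested, 3 fell in mSC against nmSC and the other 6 did not pass the test. Of all tested genes, 20.1% fell, and the median was −0.46 for the group and −0.16 for all genes. Rxrg fell by 5.09 (SE 0.258, adjusted p = 1.09e-11), from 88.3 CPM in nmSC to 2.69 CPM in mSC, the lowest value of all tested genes. Rarb fell by 0.86 (adjusted p = 6.30e-05) and Rxra by 0.75 (adjusted p = 0.000941, edgeR's quasi-likelihood test). Among those that did not pass, Ppard, a partner of FABP5, was at −0.46 (adjusted p = 0.387), Pparg, a partner of FABP4, at −1.34 (adjusted p = 0.0552) and Rara, a partner of CRABP2, at −0.23 (adjusted p = 0.248). With library size alone, 8 of the 9 were called lower, but so were 10392 of all 18597 tested genes. The median of the group then lay 0.30 below that of all genes, as it did under RLE size factors.

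**Figure D5:**
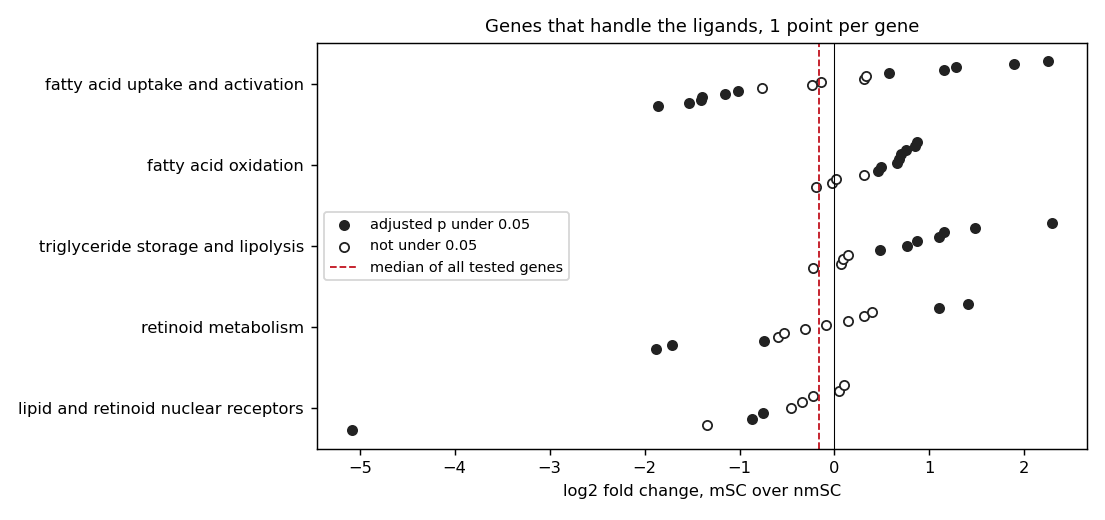
Log2 fold change of mSC over nmSC for every tested gene of the 5 groups that handle fatty acids and retinoids, 1 point per gene, filled where the adjusted p is under 0.05, with the median of all tested genes (−0.16) as a dashed line. The genes of oxidation and of triglyceride metabolism that are filled lie to the right of 0, but 1 and 5 genes respectively are called higher with library size alone, and Rxrg stands alone at −5.09.

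The scaling of the libraries bears on the size of these differences and on the direction of some. With library size alone, Pmp2 (4.08), Crabp1 (−3.65) and Fabp7 (−1.62) kept their direction and call in mSC against nmSC, while Fabp5 and Crabp2 changed sign. The TMM factors were 0.744 to 0.871 in mSC, 1.16 to 1.27 in nmSC and 0.986 to 1.03 in allSC, and with library size alone the median log2 fold change of all genes in mSC against nmSC went from −0.16 to −0.73. The 3794 higher and 3746 lower genes then became 1448 and 10392. Relative to the median of all genes, Fabp5 was at 0.37 under TMM and 0.33 under library size alone, and Crabp2 at 0.68 and 0.67. The other 2 comparisons moved likewise, from 1630 higher and 1636 lower to 417 and 3961 in mSC against allSC and from 525 higher and 1404 lower to 2194 and 744 in nmSC against allSC.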

How the data were processed

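RNA of sorted Schwann cells was sequenced from 12 libraries, 4 per gate, each with a subject number per the labels. The authors trimmed the reads (single end), aligned them with STAR 2.6.1c, counted them per gene with featureCounts and deposited raw counts without normalisation. The labels name the genome GRCm38.p5. The options for strand, overlapping genes and reads with several matches are not given in the sources used here. Symbols, exon lengths and positions came from GENCODE M21 (GRCm38), which matched 25587 of the 25700 identifiers.

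From the counts, TMM factors, a filter by gate (filterByExpr, minimum count 10) and the quasi-likelihood test of edgeR 4.0.16 in R 4.3.3 were computed in 1 model of the 12 libraries, and p-values were adjusted by Benjamini-Hochberg and called under 0.05. This left 18597 genes, and 9219, 5828 and 3952 of them had an unadjusted p under 0.05 for mSC against nmSC, mSC against allSC and nmSC against allSC. RPKM used the union of exons. Since PCR copies are not independent molecules, floors cover counting error only. The labels give the libraries of a number the same subject in all 3 gates, which was read as 1 mouse and is where the pairing comes from. Over genes, the deviations of the mSC and the nmSC library of mice 1 to 4 correlated at −0.23, 0.059, 0.15 and −0.13, so the counts themselves do not show the pairing. Within each gate the libraries differed by more than sampling noise, with a chi-square per degree of freedom of 4.03 to 95.7. The sex of each mouse is not given by the labels and was not used.

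The members and the gene lists were chosen with earlier results of these data known. Named genes are the 7 members, other genes of the family (1 item is not reported here), the called genes of each list with the largest change at 10 CPM or more, the most abundant gene of each list, the 3 nearest patterns of each member and the partners Ppard, Pparg, Rara, Lipe and Pnpla2. Genes of the lists named beyond these (Cpt1a, Aldh1a1, Aldh1a3, Acsl5, Lpin1, Plin2, Gpat4 and single markers) were chosen after their values were seen. Of the marker lists, 7 fibroblast markers summed to 436 to 1033 CPM in mSC and 2923 to 4102 CPM in nmSC (led by Col1a1, the 1 called marker of 5 tested), 5 perineurial markers to 136.5 to 216 and 202 to 337 (1 higher and 2 lower in mSC of 3 tested), 6 mural cell markers to 74.5 to 196 and 76.2 to 117 (led by Pdgfrb, 1 higher and 2 lower of 6 tested), 7 neuron markers to 42.9 to 81.8 and 15.9 to 24.1 (2 higher and 1 lower of 7 tested), 5 melanocyte markers to 110 to 125 and 31.4 to 45.8 (led by Pmel in mSC, 1 higher and 2 lower of 4 tested) and 5 keratinocyte markers to 5.90 to 9.10 and 6.65 to 13.6 CPM (1 lower of 2 tested). Of landmark lists, 7 of 9 immature Schwann cell genes and 8 of 8 proliferation genes fell in mSC against nmSC, where 20.1% of all tested genes fell. With RLE size factors 7 of the 8 proliferation genes fell.

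The steps were tested on simulated counts of mSC against nmSC with 18300 genes. Only a small part of the genes was changed, up and down in equal number, and genes with few counts were not among them. In the data themselves 40.5% of the tested genes were called, so the rates hold for the simulated setting only. In the simulated counts, edgeR recovered 71.6% of genes changed 2-fold and 98.2% of those changed 4-fold, with 5.44% false calls. DESeq2 1.42.0 recovered 86.1% of changed genes, a rate not split by fold, with 12.6% false calls. The recovery of edgeR and DESeq2 is thus not compared like for like. These rates are not given by count level or by scaling. They therefore do not vouch for calls on members with few counts or for calls that depend on the scaling. Alternatives were DESeq2 and its size factors, library size alone, no filter, fits of 2 gates, the replicate block, other lengths and leaving out each library.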

Additional observations from a re-analysis of the deposited data

Results flagged for a closer look

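The level of Pmp2 in mSC was 5219 CPM in library 4 and 3299 to 3581 CPM in the other 3 libraries of the gate. The gap between this library and the next took up 0.853 of the range of the 4, above the critical value of Dixon's test at 95%. It was the only such value among 21 groups examined, each gene in each gate, and chance gives about 1 in 20. Library 4 also had the lowest TMM factor, 0.744, and was the highest for Fabp5 (158 CPM), Crabp1 (0.873 CPM) and Crabp2 (5.98 CPM) within mSC. Without it the log2 fold change of Pmp2 in mSC against nmSC was 4.50 with adjusted p = 1.31e-15 by edgeR's quasi-likelihood test.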

How the results depend on the processing

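Pmp2 kept its direction and its calls under every alternative run, from 4.08 (library size alone) to 4.80 (without nmSC library 4) for mSC against nmSC, and Crabp1 likewise for the comparisons of mSC. DESeq2, which gave no adjusted p for 1 value, and its size factors changed no call of a member, and the replicate block changed none but that of Fabp7. A fit of nmSC and allSC alone called 2899 genes. With library size alone the genes called were 11840 for mSC against nmSC and 2938 for nmSC against allSC. Under the same scaling, the log2 fold changes that turned or crossed the threshold were, for mSC against nmSC, Fabp4 −1.79, Fabp5 −0.40 and Crabp2 −0.054, for mSC against allSC, Fabp4 −1.68, Fabp5 −0.034 and Crabp2 0.64, and for nmSC against allSC, Fabp4 0.11. The median of all genes moved with that scaling, and the cause was not tested. Fabp7 in mSC against nmSC was −1.04 with no filter and −1.06 with the replicate block, both with an adjusted p over 0.05, and Crabp2 in mSC against allSC 0.90 with 2 gates. Leaving out libraries gave −1.32 to −0.94 for Fabp7 and 0.76 to 1.15 for Crabp2 in these comparisons, −0.10 to 0.41 for Fabp5 (mSC against nmSC), −0.023 to 0.17 for Fabp5 (nmSC against allSC) and −0.45 to 0.072 for Fabp4 (nmSC against allSC, 0.03 without nmSC library 3). The sign turned without mSC library 4, nmSC library 1, and allSC library 4 or nmSC library 3, respectively. Genes called ranged from 6174 to 7991, 2205 to 4204 and 1345 to 2784 in the 3 comparisons.

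The Fabp5 RPKM was 37.7, 46.8 and 40.5 in allSC, mSC and nmSC with mean transcript length, 80.8, 100.1 and 86.6 with the longest protein-coding transcript, and 29.2 in nmSC with library size alone. The Pmp2 share was 96.1%, 98.1% and 67.2%, then 92.8%, 96.4% and 52.3% with these lengths, and its allSC place 49.2% with library size alone. Members under 100 counts per library, all but Pmp2 and Fabp5, limit what depth can show.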
